A study of Homo sapiens with 6 samples.

Results

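The endoplasmic reticulum (ER) folding and quality control module described here consisted of 42 genes, chosen by name: a gene was a member where its symbol in the count tables equalled a name on the list. All 42 were found among the 32029 genes listed, and all 42 passed the filter on low counts that left 14996 genes for testing. They were divided by function into 6 sensors and transcription factors, 12 chaperones and cochaperones, 13 isomerases and oxidoreductases, and 11 genes of ER-associated degradation (ERAD). WFS1, an ER membrane protein, was placed in the first group although it is neither a sensor nor a transcription factor of this response. The rule used names only, but earlier results of these data were known when the list was made.

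RNA came from SW480, an established cell line of a human colorectal cancer, transfected either with a control siRNA (siControl, called siNC in the sample labels, genotype WT) or with siRNA against ZEB1 (siZEB1, genotype ZEB1 knockdown), and was taken after 48 h. Each group had 3 samples, which the study's methods call biological replicates. ZEB1 is a zinc finger transcription factor that binds E-boxes and is best known for repressing epithelial genes. The values describe 1 cell line at 1 time, and in bulk RNA a change in the number of cells that express a gene cannot be told apart from a change in RNA per cell.

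Proteins that enter the secretory pathway fold in the ER lumen, where chaperones of the HSP70, HSP90 and lectin families hold them and disulfide isomerases form and rearrange their disulfide bonds. When unfolded proteins accumulate, the membrane sensors IRE1 (ERN1), PERK (EIF2AK3) and ATF6 start the unfolded protein response, which raises transcription of chaperones, isomerases and ERAD genes through XBP1, ATF4 and ATF6. ERAD passes proteins that fail to fold back to the cytosol for degradation, largely through the ubiquitin ligase SYVN1 and its adaptor SEL1L. Secretory epithelia rely on this system.

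The sequences that follow are the known response elements in the promoters of members, shown because the members that carry them were nearly all in the same group of calls described later. The ER stress response element (ERSE) has the letters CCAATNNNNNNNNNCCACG, and the related ERSE-II has ATTGGNCCACG. Both were searched on both strands in the 300 bases from 250 before to 50 after each annotated RefSeq gene start (GRCh38.p14), and a gene with several starts was counted once. Promoter windows were found for 38 of the 42 members. PDIA3, FKBP14, DERL1 and DERL3 had no entry. ERSE was found in the windows of 8 members, which is 21.1% of the 38, and in 0.0916% of the 27305 genes with a window. ERSE-II was found in 3 members, or 7.89%, and in 0.0696% of all genes. The elements were chosen as the known ones of this response, with earlier results known, so these shares are a description. The genes with a window also include genes not tested here: of the 17 other genes with an ERSE, 8 were tested. The elements read as follows, 5′ to 3′ on the strand given, with the fixed letters of each motif in capitals.
HSPA5 (chr9:125241391-125241409, minus strand): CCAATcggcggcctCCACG
HSP90B1 (chr12:103930216-103930234, plus strand): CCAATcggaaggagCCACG
HSP90B1 (chr12:103930321-103930339, minus strand): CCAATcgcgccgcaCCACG
CALR (chr19:12938384-12938402, minus strand): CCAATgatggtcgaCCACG
CANX (chr5:179698778-179698796, plus strand): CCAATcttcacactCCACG
CRELD2 (chr22:49918554-49918572, minus strand): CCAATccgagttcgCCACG
XBP1 (chr22:28800603-28800621, minus strand): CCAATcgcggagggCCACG
ERO1B (chr1:236282183-236282201, plus strand): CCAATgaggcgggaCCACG
PDIA6 (chr2:10812853-10812871, minus strand): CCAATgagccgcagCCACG
HERPUD1 (chr16:56932025-56932035, plus strand): ATTGGgCCACG
SDF2L1 (chr22:21642114-21642124, minus strand): ATTGGtCCACG
HYOU1 (chr11:119057274-119057284, plus strand): ATTGGaCCACG
HYOU1 (chr11:119057380-119057390, plus strand): ATTGGaCCACG

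The promoter of HSPA5, the member with the highest mean level per annotated exonic length, is given whole so that its element can be seen in place. The window is chr9:125241294-125241593 on the minus strand of GRCh38.p14, the element is in capitals, and its first base lies 66 bases before the gene start.
HSPA5 promoter: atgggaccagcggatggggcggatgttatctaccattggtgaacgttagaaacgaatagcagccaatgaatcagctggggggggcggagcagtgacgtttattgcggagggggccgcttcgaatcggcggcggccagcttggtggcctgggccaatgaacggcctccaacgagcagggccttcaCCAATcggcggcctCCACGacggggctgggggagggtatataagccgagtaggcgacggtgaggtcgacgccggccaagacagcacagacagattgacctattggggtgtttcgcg

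The tables held between 19040636 and 22357633 counts per sample. The authors deposited whole numbers of reads per gene without normalization. Levels are CPM, reads per effective library size as TMM sets it, so that 1 CPM stood for 18.9 to 22.4 reads. Means are given with the SD over 3 samples. The log2FC is the log2 fold change between the groups, positive where siZEB1 was higher, and its SE comes from the edgeR fit. ZEB1 was counted 1247, 1276 and 908 times in siControl and 136, 132 and 162 times in siZEB1 (log2FC -2.85, SE 0.11, adjusted p = 4.85e-12, edgeR's quasi-likelihood test). Of the markers of colorectal epithelium, KRT8 and KRT18 were at 3455 ± 160 and 1418 ± 150 CPM in siControl, EPCAM, VIL1 and KRT19 were called higher in siZEB1 (54.7 ± 2.29 to 454 ± 14.1, 4.08 ± 0.503 to 20.7 ± 1.49 and 72.3 ± 1.19 to 223 ± 17.1 CPM), CDX2 was called lower (103 ± 7.08 to 41.8 ± 2.66 CPM), and KRT20, CDH17 and GPA33 were below 1 CPM in both. Listed markers of immune cells were below 1 CPM in both group means, those of endothelium below 1.5 CPM, and those of fibroblasts were highest for COL1A1, at 10.2 ± 0.572 and 8.70 ± 1.11 CPM.

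More members were higher than lower after ZEB1 knockdown. At an adjusted p under 0.05, 23 of the 42 were higher (54.8%), 7 were lower (16.7%) and 12 did not pass the test. Over all 14996 genes tested, 19.0% were called higher and 21.2% lower. The median log2FC of the members was 0.22, against -0.0055 over all genes, and 33 members had a positive and 9 a negative value. The changes were mostly small: only 3 members were called higher and 3 lower with a fold above 1.5, which is 7.14% each way, near the 6.36% and 8.57% of all genes. The 3 that rose by this measure were DNAJB9, HERPUD1 and ERO1A, and the 3 that fell were P4HB, TXNDC5 and EDEM1.

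All 3 siZEB1 samples lay above all 3 siControl samples for 23 members (54.8%), against 24.3% of all genes, and below them for 8 members (19.0%), against 25.3% of all genes. The members were more abundant than most genes, with a median level of 61.6 CPM against 19.2 CPM, and small changes of abundant genes pass the test more readily. Among the 9030 genes with a mean of at least 10 CPM, 23.3% were called higher and 25.6% lower. Among the 40 members at that level, 23 were higher (57.5%) and 6 lower (15.0%).

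**Figure D1:**
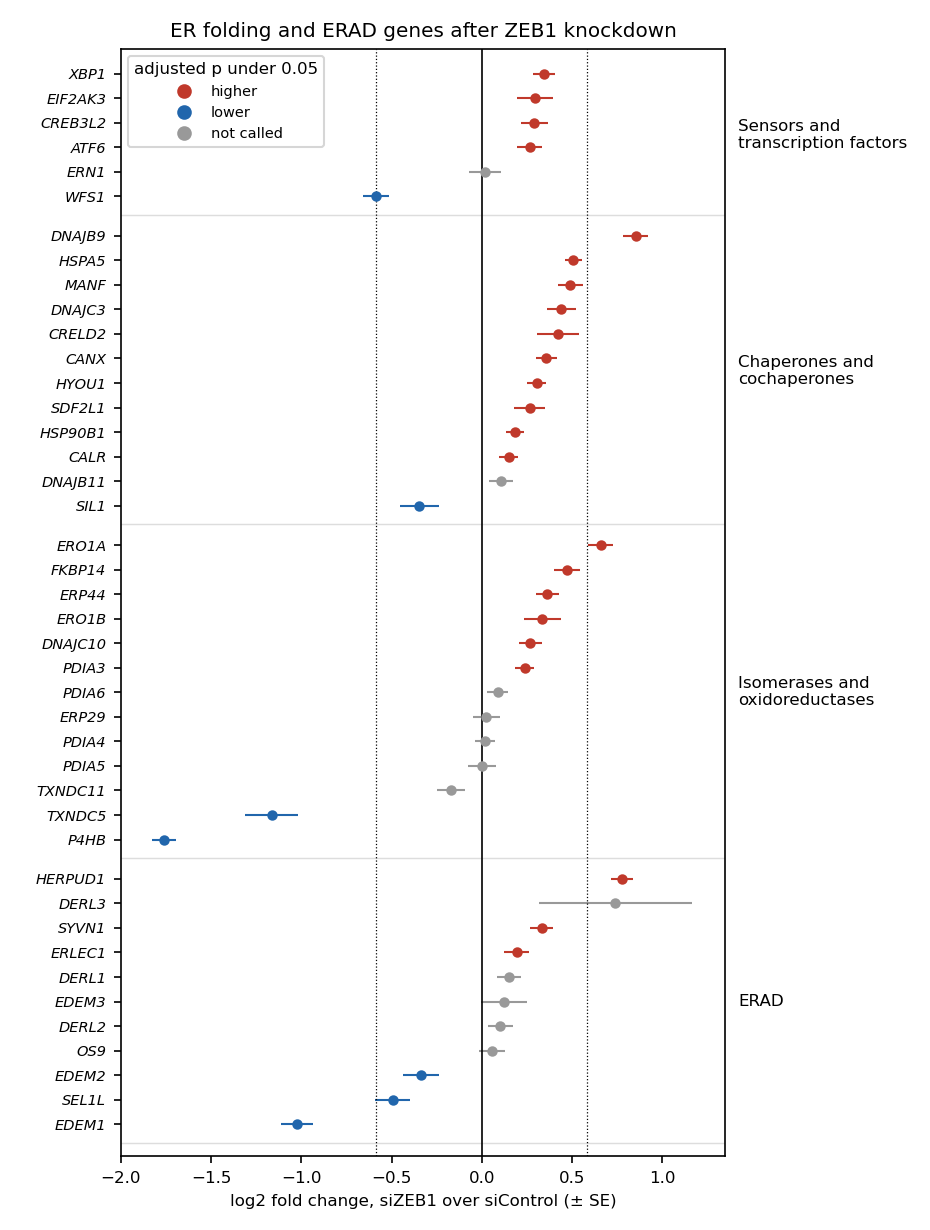
Log2FC of siZEB1 over siControl for each of the 42 members (x axis, points with ± SE bars from edgeR, n = 3 per group), grouped by role and coloured by the call at an adjusted p under 0.05. Dotted lines mark a fold of 1.5; chaperones lie mostly to the right of 0, while P4HB, TXNDC5 and EDEM1 lie farthest to the left, at -1.76, -1.16 and -1.02.

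The chaperones and cochaperones were the role with the most rises: 10 of 12 were called higher (83.3%, against 19.0% of all genes), SIL1 was lower and DNAJB11 did not pass the test. Their median log2FC was 0.33. Their summed level was 3698, 3602 and 3497 CPM in siControl and 4604, 4532 and 4573 CPM in siZEB1, a ratio of means of 1.27. HSPA5, CANX, CALR and HSP90B1 make up most of that sum.

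HSPA5 (ENSG00000044574, chromosome 9 from 125234853 to 125241330 in GENCODE 29 on GRCh38) encodes BiP, the ER HSP70 that binds unfolded chains and holds the sensors inactive. It was counted 17936, 19317 and 15774 times in siControl and 23108, 22923 and 22419 times in siZEB1. These counts were 844, 863 and 818 CPM against 1224, 1192 and 1171 CPM, with no overlap between the groups. edgeR gave a log2FC of 0.51 with an SE of 0.05 and an adjusted p of 3.31e-07.

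DNAJB9 (ERdj4; chromosome 7 from 108569568 to 108574850), a J-domain cochaperone of BiP, rose most of all members. Its level was 38.3, 34.9 and 37.1 CPM in siControl and 64.2, 65.3 and 69.6 CPM in siZEB1. edgeR gave a log2FC of 0.85 with an SE of 0.07 and an adjusted p of 7.07e-08. HYOU1 (GRP170), a large HSP70 relative that exchanges nucleotide on BiP, varied little within groups. It was at 255, 256 and 256 CPM in siControl and 321, 309 and 318 CPM in siZEB1 (log2FC 0.31, adjusted p = 1.80e-04).

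HSP90B1 encodes GRP94, the HSP90 of the ER. It was at 414, 413 and 412 CPM in siControl and 465, 477 and 466 CPM in siZEB1. The groups were fully apart although the change was small, with a log2FC of 0.18 (SE 0.05, adjusted p = 0.00744).

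CANX and CALR encode calnexin and calreticulin, the membrane-bound and the soluble lectin chaperone of glycoproteins. CANX was at 1312, 1226 and 1132 CPM in siControl and 1546, 1521 and 1636 CPM in siZEB1 (log2FC 0.36, adjusted p = 7.77e-05). CALR was at 586, 568 and 585 CPM in siControl and 664, 654 and 610 CPM in siZEB1 (log2FC 0.15, SE 0.05, adjusted p = 0.0299). The rise of CALR was the smallest among called members, and the call was lost without siControl 1, siControl 2, siZEB1 1 or siZEB1 2, with adjusted p from 0.0506 to 0.151.

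The other called chaperone genes were MANF, a secreted ER stress protein, at 75.8 ± 5.33 and 106 ± 4.84 CPM (log2FC 0.49), and DNAJC3 (p58IPK), a further cochaperone of BiP, at 51.8 ± 5.42 and 70.3 ± 4.51 CPM (0.44). CRELD2, a secreted protein of the same response, was at 17.3 ± 3.06 and 23.2 ± 2.16 CPM (0.42), and SDF2L1, a partner of ERdj3, at 26.5 ± 1.67 and 31.8 ± 2.77 CPM (0.26). The call of SDF2L1 was lost without siControl 1, siControl 2, siZEB1 1 or siZEB1 2 (adjusted p from 0.0592 to 0.115). DNAJB11 (ERdj3) was at 65.1 ± 1.22 and 70.1 ± 3.48 CPM (adjusted p = 0.220). SIL1, a nucleotide exchange factor of BiP, fell from 12.8 ± 0.903 to 10.1 ± 1.02 CPM (log2FC -0.35, adjusted p = 0.0178), a call lost without siControl 2, siZEB1 2 or siZEB1 3 (adjusted p from 0.0597 to 0.0789). Nucleotide exchange factors of BiP therefore had calls in both directions, HYOU1 higher and SIL1 lower.

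The isomerases and oxidoreductases were divided. Of the 13, 6 were higher (46.2%), 2 were lower (15.4%) and 5 did not pass the test, with a median log2FC of 0.089. The shares of all genes tested were 19.0% higher and 21.2% lower. Their summed level was 1644, 1619 and 1649 CPM in siControl and 1675, 1653 and 1639 CPM in siZEB1. These ranges overlap. Within the sum, P4HB went from 262 ± 16.5 to 77.2 ± 3.38 CPM while PDIA3, ERO1A, ERP44 and DNAJC10 rose.

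P4HB (ENSG00000185624, chromosome 17 from 81843159 to 81860694) encodes protein disulfide isomerase, the classical isomerase of the ER and also a subunit of collagen prolyl 4-hydroxylase. It had the largest change of all 42 members. It was counted 5228, 5821 and 5375 times in siControl and 1504, 1512 and 1404 times in siZEB1, or 246, 260 and 279 CPM against 79.7, 78.6 and 73.4 CPM. edgeR gave a log2FC of -1.76 with an SE of 0.07 and an adjusted p of 4.52e-12.

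TXNDC5 (ERp46), a thioredoxin-domain isomerase, was rare. It was counted 158, 179 and 128 times in siControl and 66, 57 and 65 times in siZEB1, which is 7.43, 7.99 and 6.64 CPM against 3.50, 2.96 and 3.40 CPM. edgeR gave a log2FC of -1.16 with an SE of 0.15 and an adjusted p of 7.12e-06. Exons of another gene on the same strand cover 60.6% of its exonic bases, so its level is uncertain, since reads in shared exons may be discarded or assigned elsewhere.

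The oxidases that recharge the isomerases rose. ERO1A (chromosome 14 from 52639916 to 52695900) was at 99.4, 92.6 and 86.5 CPM in siControl and 142, 141 and 156 CPM in siZEB1 (log2FC 0.66, SE 0.07, adjusted p = 1.01e-06). ERO1B, its paralogue, was at 28.5 ± 3.90 and 35.9 ± 4.21 CPM, with overlapping samples and a log2FC of 0.33 (adjusted p = 0.0148) that lost its call without siControl 2 or siZEB1 3 (adjusted p = 0.0714 and 0.0787). ERP44, which retains the oxidases in the early secretory pathway, rose from 67.2 ± 0.562 to 86.4 ± 1.31 CPM (log2FC 0.36, adjusted p = 1.76e-04).

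PDIA3 (ERp57), the isomerase that works with calnexin and calreticulin, was at 354, 356 and 371 CPM in siControl and 441, 422 and 412 CPM in siZEB1. It was called higher with a log2FC of 0.24 (SE 0.05, adjusted p = 0.00173). PDIA4 (ERp72) was at 251, 248 and 259 CPM in siControl and 261, 261 and 246 CPM in siZEB1 (log2FC 0.020, SE 0.06, adjusted p = 0.808). PDIA6 (P5) was at 232, 221 and 209 CPM in siControl and 236, 238 and 231 CPM in siZEB1 (log2FC 0.089, adjusted p = 0.239). The groups of PDIA4 and of PDIA6 overlapped. Of the 4 isomerases with the highest level per length in siControl, PDIA3 thus rose, P4HB fell, and PDIA4 and PDIA6 did not pass the test.

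FKBP14, a prolyl isomerase, was called higher at 43.0 ± 2.72 and 59.6 ± 2.08 CPM (log2FC 0.47), as was DNAJC10 (ERdj5), a reductase that acts in ERAD, at 143 ± 8.40 and 172 ± 7.63 CPM (0.27). PDIA5, ERP29 and TXNDC11 did not pass the test, with log2FCs of -0.00088, 0.026 and -0.17.

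Of the 11 ERAD genes, 3 were higher (27.3%), 3 were lower (27.3%) and 5 did not pass the test, and the median log2FC was 0.12. These shares are near the 19.0% and 21.2% of all genes. The central ligase and its adaptor changed in opposite directions. SYVN1 (HRD1), the ubiquitin ligase, was at 57.0, 56.2 and 58.8 CPM in siControl and 75.2, 70.7 and 70.4 CPM in siZEB1 (log2FC 0.33, SE 0.07, adjusted p = 6.60e-04). SEL1L, its membrane adaptor, was at 86.1, 75.2 and 64.2 CPM in siControl and 51.3, 48.8 and 60.1 CPM in siZEB1 (log2FC -0.49, SE 0.10, adjusted p = 6.64e-04). The SEL1L samples were spread widely but did not overlap.

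HERPUD1 (ENSG00000051108, chromosome 16 from 56932048 to 56944863), an ER membrane protein that recruits components to the ligase and is itself strongly induced by ER stress, was at 106, 101 and 97.8 CPM in siControl and 174, 176 and 172 CPM in siZEB1. edgeR gave a log2FC of 0.78 with an SE of 0.06 and an adjusted p of 2.79e-08.

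The EDEM proteins trim mannose from glycoproteins that are to be degraded. EDEM1 (chromosome 3 from 5187646 to 5219957) was at 54.7, 53.0 and 49.1 CPM in siControl and 24.7, 23.2 and 29.2 CPM in siZEB1 (log2FC -1.02, SE 0.09, adjusted p = 9.36e-08). EDEM2 fell less, from 22.5 ± 2.13 to 17.8 ± 2.02 CPM (log2FC -0.34, adjusted p = 0.0126, and 0.0826 without siZEB1 1). EDEM3 was at 40.3, 39.8 and 29.6 CPM in siControl and 35.6, 34.8 and 49.2 CPM in siZEB1 and did not pass the test (adjusted p = 0.470). For genes of the greatest exonic length, each sample was compared with the mean of the other samples of its group. The median deviation was -0.0917 in siControl 3 and 0.0817 in siZEB1 3 on the log2 scale. EDEM3 was lowest and highest in the same samples. EDEM1 and SEL1L were likewise lowest of siControl and highest of siZEB1 in these samples. The same held for CANX, ERO1A, ERO1B, DNAJC3, DNAJC10 and EIF2AK3, which were called higher, and for ERN1 and DERL1, which were not called. Such deviations narrow the difference of a gene that fell and widen that of a gene that rose. The part of this in the values of these genes was not tested.

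ERLEC1, a lectin that hands glycoproteins to the ligase, was called higher at 47.6 ± 0.573 and 54.5 ± 2.20 CPM (log2FC 0.19, adjusted p = 0.0317). That call was lost without siControl 1, siControl 2, siZEB1 2 or siZEB1 3 (adjusted p from 0.0664 to 0.110). Its counterpart OS9 was at 68.1 ± 3.59 and 70.8 ± 5.65 CPM (adjusted p = 0.582). The derlins, membrane proteins of the exit channel, did not pass the test: DERL1 was at 47.1 ± 1.33 and 52.3 ± 0.975 CPM (adjusted p = 0.0887) and DERL2 at 59.9 ± 1.77 and 64.3 ± 3.95 CPM (adjusted p = 0.254). DERL3 was close to the detection limit, with 8, 10 and 14 reads in siControl and 22, 19 and 8 reads in siZEB1, and exons on the opposite strand overlap 77.0% of its exonic bases. Whether the counting used strand is not given in the sources used here.

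Of the 6 sensors and transcription factors, 4 were higher (66.7%), 1 was lower (16.7%) and 1 did not pass the test, with a median log2FC of 0.28. The lower gene was WFS1, so no sensor or transcription factor in the group was called lower. Of all genes tested, 19.0% were higher and 21.2% lower. XBP1, the transcription factor made active by IRE1, was at 103, 98.3 and 97.6 CPM in siControl and 130, 125 and 125 CPM in siZEB1 (log2FC 0.34, SE 0.06, adjusted p = 2.38e-04). Counts per gene do not separate its spliced from its unspliced transcript. ATF6 was at 44.7, 48.2 and 43.3 CPM in siControl and 55.0, 54.7 and 53.9 CPM in siZEB1 (log2FC 0.26, SE 0.07, adjusted p = 0.00599).

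ERN1, which encodes IRE1, was at 30.4, 32.2 and 28.2 CPM in siControl and 30.0, 27.9 and 34.1 CPM in siZEB1 (log2FC 0.018, SE 0.09, adjusted p = 0.891). EIF2AK3, which encodes the kinase PERK, was at 18.6, 21.6 and 17.5 CPM in siControl and 23.9, 21.5 and 25.5 CPM in siZEB1. Its groups overlapped, and its log2FC of 0.30 (SE 0.10, adjusted p = 0.0234) lost the call without siControl 1, siControl 3, siZEB1 1 or siZEB1 3 (adjusted p from 0.0615 to 0.0896). The transcripts of the 3 sensors thus gave a call for ATF6, a call that depended on single samples for EIF2AK3, and no call for ERN1.

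CREB3L2, an ER-bound factor related to ATF6, rose from 39.3 ± 1.94 to 48.1 ± 3.19 CPM (log2FC 0.29, adjusted p = 0.00530). WFS1, the ER membrane protein wolframin, fell from 51.3 ± 1.56 to 34.2 ± 1.81 CPM (adjusted p = 6.57e-06), and its log2FC of -0.584 lay just short of a fold of 1.5, which is 0.585 on the log2 scale.

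**Figure D2:**
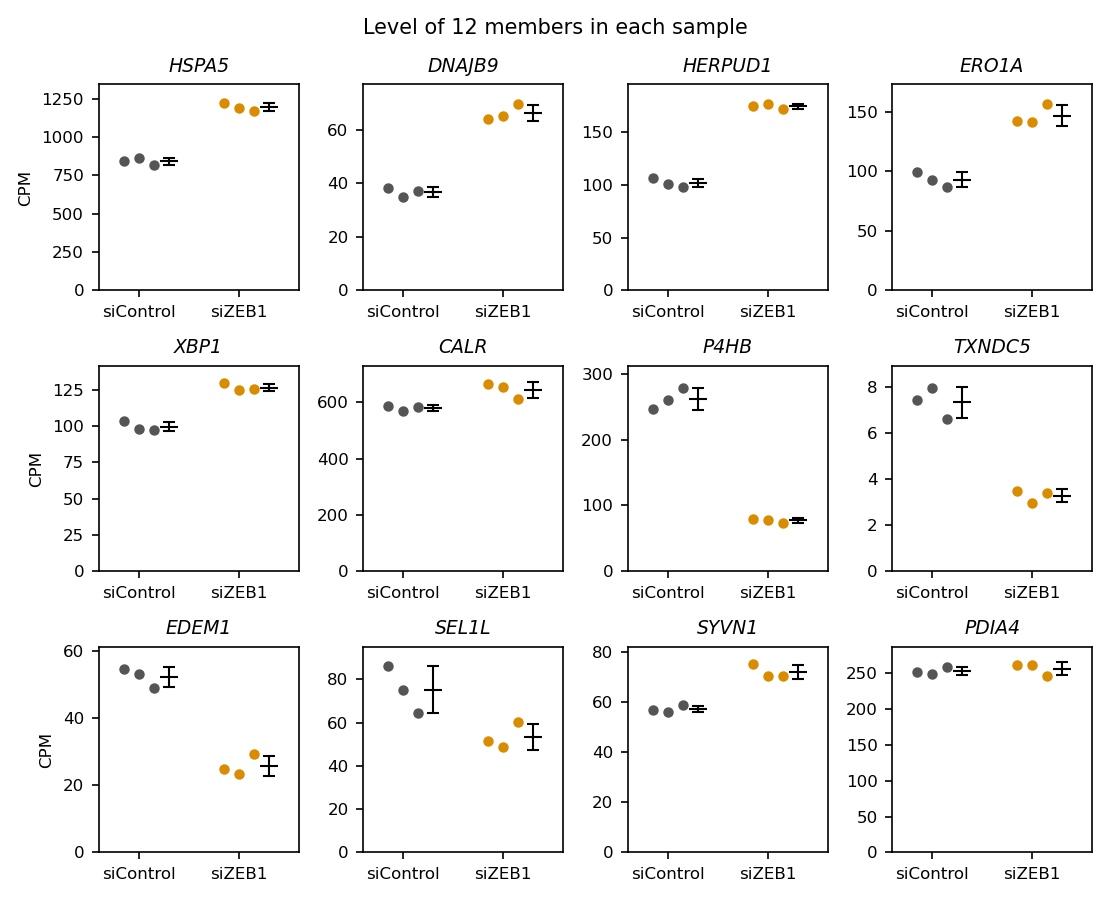
Level of 12 members in each sample (y axis, CPM from 0), with siControl in grey and siZEB1 in orange, each point a sample and the black bar the mean ± SD of 3. The 2 groups are apart for all members shown except PDIA4, and the siControl samples of SEL1L range from 64.2 to 86.1 CPM.

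Levels were compared between genes per kb of exonic length, taken over the exons of all annotated transcripts of a gene. That length can exceed the length of the transcripts expressed, so ranks between genes depend on the annotation. On this scale HSPA5 ranked first in both groups, at 215 ± 5.69 CPM per kb in siControl and 306 ± 6.79 in siZEB1. CALR and CANX followed in siControl at 214 ± 3.79 and 196 ± 14.4 CPM per kb, where these neighbours and HSPA5 did not differ beyond their spread. In siZEB1 CANX was at 251 ± 9.68 and CALR at 237 ± 10.5 CPM per kb, and HSPA5 stood clear of both. HSP90B1 and PDIA3 came next, at 87.9 ± 0.212 and 85.0 ± 2.16 in siControl and 99.9 ± 1.43 and 100 ± 3.40 CPM per kb in siZEB1.

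P4HB ranked 8 of 42 in siControl, at 49.3 ± 3.12 CPM per kb, and 18 in siZEB1, at 14.6 ± 0.638. EDEM1 went from rank 29 to 38, at 7.73 ± 0.426 and 3.80 ± 0.460 CPM per kb. HERPUD1 rose from rank 14 to 11 and DNAJB9 from rank 18 to 14. The sensors ERN1, EIF2AK3 and ATF6 were all below 7 CPM per kb in both groups, as were the chaperone members CRELD2 and SIL1, and DERL3 was lowest at 0.136 ± 0.0488 and 0.226 ± 0.103 CPM per kb.

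**Figure D3:**
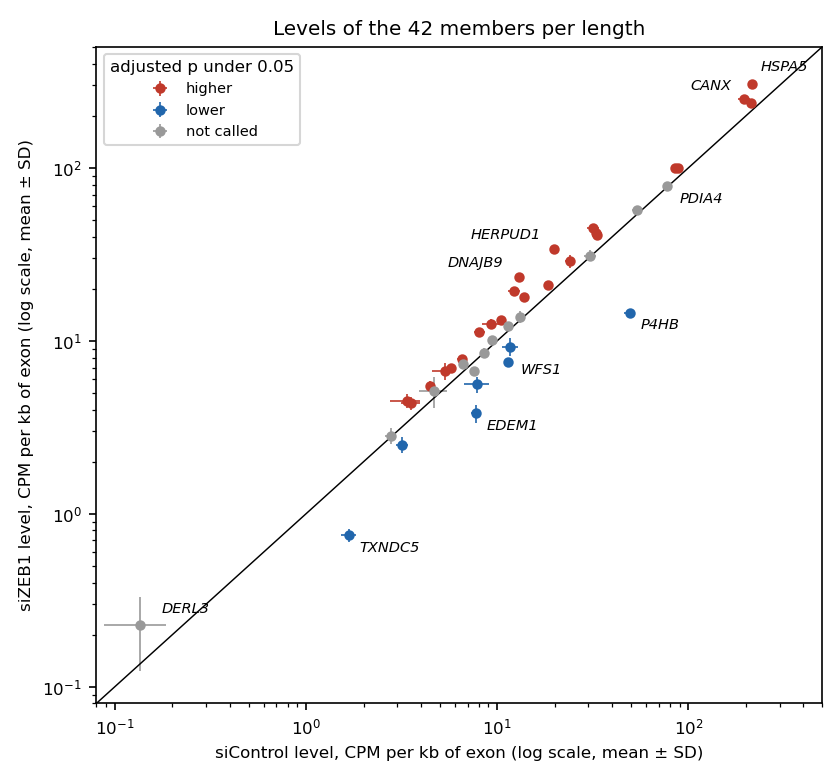
Mean level of each of the 42 members in siControl (x axis) and siZEB1 (y axis), in CPM per kb of exon on log axes, with ± SD bars (n = 3) and the line of equal levels. Most members lie close to the line or slightly above it over the range from 0.136 to 306 CPM per kb, and P4HB lies farthest below it.

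The calls of members with and without the response elements printed above were as follows. Of the 11 members with an ERSE or ERSE-II in the window, 10 were called higher, none was called lower and PDIA6 did not pass the test, and their median log2FC was 0.33. Of the 27 members with a window but neither element, 11 were higher, 7 were lower and 9 did not pass the test, with a median of 0.10. DNAJB9, ERO1A, MANF and DNAJC3 were among those that rose without an exact match to these letters, and P4HB, TXNDC5, EDEM1 and SEL1L among those that fell. Outside the members, 33 genes had either element, and of the 19 of these that were tested 7 were higher and 7 lower. Over all genes tested, 19.0% were called higher and 21.2% lower. The carriers HSPA5, HSP90B1, HYOU1, SDF2L1, CALR, CANX and CRELD2 are chaperones or cochaperones, a role with 10 of 12 called higher. Element and role were not separated. The elements were chosen as the known ones of this response, and these counts are a description.

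The 2 other motifs searched have fewer fixed letters, so their shares over all genes cannot be set against those of the ERSE motifs. The core of the unfolded protein response element, TGACGTG, was in the windows of HYOU1, TXNDC5, TXNDC11 and DNAJC10, or 10.5% of the 38 members against 2.40% of all genes. The E-box CACCTG, a sequence that ZEB1 is known to bind, was in those of EIF2AK3, HSP90B1 and PDIA4, or 7.89% of members against 24.1% of all genes. Of the members with either motif, HYOU1, DNAJC10, EIF2AK3 and HSP90B1 were called higher, TXNDC5 lower, and TXNDC11 and PDIA4 did not pass the test.

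The 3′UTRs of the members were also searched for the letters GAACACA on the transcript strand, a 7-mer known from earlier results of these data to be frequent in genes that fell. In GENCODE 29, 1 transcript per gene was used. The 7-mer was in the 3′UTR of 1377 of the 12321 tested genes that had a 3′UTR (11.2%), and 45.2% of these genes were called lower and 12.6% higher, against 21.3% and 21.8% of the genes without it. The 3′UTRs with the 7-mer were also longer, with a median of 2898 against 959 bases. It was in 5 of the 42 members (11.9%), of which P4HB, TXNDC5 and SEL1L were called lower, EIF2AK3 higher and DERL2 not called. The sites in P4HB and SEL1L, the more abundant of the 3 members with the site that fell, and in EIF2AK3, which did not, are shown with the 7-mer in capitals and its place in GRCh38.
P4HB (chr17:81843191-81843197, minus strand): acaatcgaattGAACACAttggccaaata
SEL1L (chr14:81476011-81476017, minus strand): ttttgcacaaaGAACACAtcaccttcctg
EIF2AK3 (chr2:88556807-88556813, minus strand): ggtggtgtacaGAACACActtaagtgtgt

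The remaining members that fell, EDEM1, EDEM2, WFS1 and SIL1, had no such site in the transcript used. The sequence of the siRNA is not given in the sources used here, and the part of any sequence match in these falls was not tested.

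Genes that work beside the members were followed in 7 lists with 129 names, of which 125 were listed and 120 tested. Of the 120, 57 were higher (47.5%) and 14 lower (11.7%), with a median log2FC of 0.16, against 19.0%, 21.2% and -0.0055 over all genes tested. The shares in each list can be read against the same values. Among other members of the disulfide isomerase family and ER redox enzymes, 6 of 11 were higher (54.5%) and 1 lower (9.09%). PRDX4, the peroxiredoxin that consumes peroxide made by the oxidases, rose from 44.3 ± 5.05 to 109 ± 9.26 CPM (log2FC 1.30, adjusted p = 3.84e-09), a larger value than that of any member. TMX3, a membrane-bound isomerase, rose from 27.4 ± 2.17 to 44.6 ± 4.46 CPM (0.70), TXNDC12 by 0.58 on the log2 scale, and TMX4 by 0.56. Other exons on the same strand cover 48.3% of the exonic bases of TXNDC12, so its level is uncertain.

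In the calnexin cycle and N-glycosylation, 10 of 21 genes were higher (47.6%) and 4 lower (19.0%). GANAB, the catalytic subunit of glucosidase II, which trims glucose so that glycoproteins bind and leave calnexin, rose from 192 ± 6.89 to 533 ± 10.1 CPM (log2FC 1.47, adjusted p = 3.95e-12). UGGT1, which puts the glucose back on misfolded glycoproteins, fell from 139 ± 9.56 to 101 ± 6.90 CPM (-0.47, adjusted p = 5.13e-05). DPAGT1, which starts the glycan, fell from 85.4 ± 2.56 to 48.0 ± 1.22 CPM (-0.83), and OSTC, a subunit of the transferase, rose by 0.41 on the log2 scale.

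Of 24 other ERAD genes, 7 were higher (29.2%) and 2 lower (8.33%). AUP1 rose from 118 ± 9.70 to 171 ± 9.17 CPM (log2FC 0.53) and SELENOS from 52.2 ± 2.62 to 75.1 ± 4.17 CPM (0.53), both partners of the ligase complex. The ubiquitin ligase MARCHF6 and HERPUD2, the paralogue of HERPUD1, each rose by 0.40 on the log2 scale.

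Of 24 genes for entry into the ER, 13 were higher (54.2%) and 4 lower (16.7%). SRPRA, the receptor subunit that docks ribosomes, fell from 281 ± 1.93 to 77.3 ± 2.96 CPM (log2FC -1.86, adjusted p = 8.97e-13). SSR3, a translocon-associated protein, fell from 397 ± 17.3 to 209 ± 6.97 CPM (-0.93), and SPCS1, of the signal peptidase, from 90.6 ± 3.83 to 48.7 ± 4.01 CPM (-0.89). SRP19 of the signal recognition particle rose from 7.49 ± 0.870 to 12.4 ± 1.34 CPM (0.73). Other exons on the same strand cover 18.2% of its exonic bases, so its level is uncertain.

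Among the 17 tested targets and partners of ATF4, 11 were higher (64.7%) and 1 was lower (5.88%). PERK activity was not measured, so these calls cannot be assigned to PERK. ATF4 itself was at 398, 387 and 415 CPM in siControl and 493, 485 and 443 CPM in siZEB1 (log2FC 0.24, adjusted p = 0.00251). DDIT3 (CHOP), the factor linked to death after long ER stress, was at 6.91, 7.14 and 7.63 CPM in siControl and 12.0, 14.0 and 13.6 CPM in siZEB1 (log2FC 0.87, SE 0.11, adjusted p = 7.63e-06). TRIB3, a pseudokinase induced with it, rose from 72.5 ± 1.38 to 147 ± 10.1 CPM (1.02), and SESN2, a stress-induced regulator of mTORC1, from 22.4 ± 0.0482 to 41.7 ± 1.47 CPM (0.90). The list's only fall was that of PSAT1, a serine synthesis enzyme, from 214 ± 8.61 to 75.3 ± 0.636 CPM (-1.51, adjusted p = 8.11e-12).

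Of 8 genes for ATF6 processing and related sensors, 3 were higher (37.5%) and 1 lower (12.5%). TRAF2, TMBIM6 and CREB3 rose by 0.26, 0.26 and 0.21 on the log2 scale. CREB3L1, a relative of the member CREB3L2, fell from 7.23 ± 1.21 to 5.05 ± 1.09 CPM (-0.51, adjusted p = 0.0205).

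Of the 15 tested partner genes with GAACACA in the 3′UTR, 7 were lower (46.7%) and 6 higher (40.0%). Of the 105 without it, 7 were lower (6.67%) and 51 higher (48.6%). Over all tested genes the shares were 45.2% lower and 12.6% higher with it, and 21.3% and 21.8% without it. The median 3′UTR lengths of the partner genes were 2281 bases with it and 706 without. The 7 partner genes with the 7-mer that were lower were SRPRA, SSR3, SPCS1, UGGT1, DPAGT1, PSAT1 and FAF2. The 6 that were higher were MARCHF6, SRPRB, SRP19, SEC11A, CEBPG and HSPA9. The part of the 7-mer in the falls was not tested. The 7-mer was known to be frequent in genes that fell in these data, so these counts are a description.

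**Figure D4:**
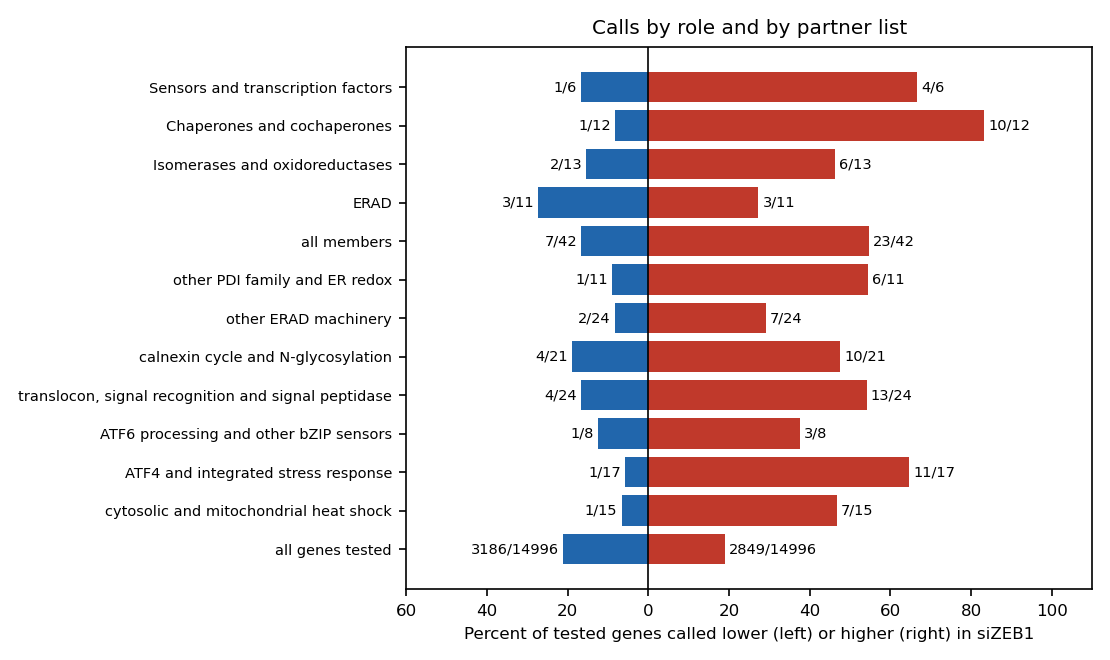
Percent of tested genes called lower (left, blue) or higher (right, red) in siZEB1 at an adjusted p under 0.05, for each role of the members, all 42 members, the 7 partner lists and all 14996 genes tested. Numbers beside the bars are genes called over genes tested; chaperones reach 10 of 12 higher, while ERAD members have 3 of 11 on each side.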

How the data were processed

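The authors deposited 1 table of counts per sample, whole numbers of reads per Ensembl gene without normalization. Per the submitters' processing notes, the tools were Trimmomatic, HISAT2, SAMtools and featureCounts on hg38. Their versions, the gene annotation and the strand setting are not given in the sources used here. Reads in exons shared by genes may therefore have been discarded or counted for either gene. Exons on the opposite strand overlap over 10% of the exonic bases of 8 members, among them DERL3 (77.0%) and PDIA6 (25.2%). The values were 58.1% for SPCS1, 44.0% for VIL1 and 31.6% for DDIT3.

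The 3 siControl and 3 siZEB1 samples were compared with edgeR 4.0.16 in R 4.3.3 (filterByExpr, TMM, quasi-likelihood test, two-sided, no covariates). P-values were adjusted by Benjamini-Hochberg over all 14996 genes tested, and the script was tested on simulated data. The study called genes by a fold of 1.5 and an unadjusted p, under 0.001 in its methods and 0.05 in its results, and both thresholds were among the alternatives. The biological coefficient of variation was 6.58%. Replicates differed by 2.27 to 9.58 times the sampling noise (chi-square over degrees of freedom), so none was a copy. Mitochondrial genes took 3.60% to 4.03% of counts.

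The members, lists and motifs were chosen with earlier results of these data known. All 42 members are reported. Values in every sample are given for called members with a fold above 1.5 and for 18 core genes whatever their value. Up to 4 called genes with the largest change and a mean of at least 1 CPM are named per partner list, plus ATF4 and DDIT3. Length, overlap and 3′UTRs came from GENCODE 29, matched by gene identifier, and promoters from RefSeq (GRCh38.p14). Alternatives were DESeq2 1.42.0, other scalings and filters, other thresholds, a replicate block and each sample left out. Same-numbered samples did not deviate together (r = -0.107, -0.147 and -0.339).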

Additional observations from a re-analysis of the deposited data

How the results depend on the processing

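The number of members higher was 19 to 22 and lower 6 to 7 when each sample was left out, against 23 and 7 with all samples. With a fold above 1.5 and an unadjusted p under 0.05 or 0.001, 3 members were higher and 3 lower, and 11 partner genes were higher and 5 lower. Partner genes numbered 40 to 59 higher and 13 to 13 lower with a sample left out. ZEB1 then ranged from -2.95 to -2.79. Role medians ranged from 0.303 to 0.350 for chaperones, 0.0790 to 0.126 for isomerases, 0.124 to 0.164 for ERAD and 0.230 to 0.319 for sensors. A replicate block gave 18 members higher and 7 lower, and calls were lost for EIF2AK3, HSP90B1, SDF2L1, CALR and ERLEC1 (adjusted p = 0.0534, 0.0666, 0.0638, 0.133 and 0.123). Same-numbered samples did not deviate together, and the sources used here do not say whether they were prepared together. The reason for the lost calls was not tested. CALR and ERLEC1 also lost their calls with no filter on low counts (adjusted p = 0.0584 and 0.0873), where more genes were tested. DERL3 was called higher without siZEB1 3 (log2 fold change 1.07, adjusted p = 0.0492).

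Signs changed for members that had not passed the test. PDIA5 was 0.0067 with DESeq2 and with median-of-ratios size factors, 0.000097 with at least 10 counts in every sample, and between -0.033 and 0.054 with a sample left out. With a sample left out, ERN1 ranged from -0.064 to 0.083 (negative without siControl 3 or siZEB1 3), ERP29 from -0.024 to 0.086 (negative without siControl 2 or siZEB1 1) and EDEM3 from -0.055 to 0.21 (negative without siControl 3 or siZEB1 3). The cause was not tested. No other scaling moved the median of all genes by more than 0.0082 on the log2 scale. Depth limits DERL3 most, at 8 to 22 reads per sample.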

Other observations

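Heat shock chaperones outside the ER were also followed. Of 15 such cytosolic and mitochondrial genes tested, 7 were higher and 1 lower, with a median log2 fold change of 0.14, against 19.0% and 21.2% of all genes. HSPD1, the mitochondrial chaperonin HSP60, rose from 1642 ± 32.2 to 2212 ± 15.9 CPM (log2 fold change 0.43, adjusted p = 9.13e-07, edgeR's quasi-likelihood test), and its partner HSPE1 from 7.10 ± 1.93 to 10.1 ± 1.29 CPM (0.51, adjusted p = 0.0169). The groups of HSPE1 overlapped. Exons of other genes cover 14.2% of its exonic bases on the opposite strand and 9.71% on the same strand, so its level is uncertain. DNAJA1, a cytosolic cochaperone, rose from 490 ± 15.0 to 611 ± 1.81 CPM (0.32, adjusted p = 8.23e-05). HSF1, the transcription factor of the heat shock response, fell from 90.2 ± 10.7 to 65.3 ± 1.82 CPM (-0.47, adjusted p = 1.65e-04).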
